A study of Mus musculus with 6 samples.

Results

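The epidermal growth factor (EGF) family was followed here through 10 genes, the ligands Areg, Ereg, Btc, Hbegf and Tgfa, the receptors Egfr, Erbb2, Erbb3 and Erbb4, and Errfi1, an inhibitor of the receptors. The members were all probe sets of the deposited table annotated to exactly 1 of these symbols. The rule found 21 probe sets for 9 of the genes among 45037 probe sets, and 14 of them, for 6 genes, were bright enough to be tested, among 27022 tested in all. The annotation used here named no probe set for Areg, which was not analysed here.

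The samples were primary ovarian surface epithelium cells of virgin FVB/N mice aged 8 weeks, taken from dissected ovaries and cultured for 24 hours. The 3 ALDH-positive and 3 ALDH-negative samples were separated by flow cytometry for their aldehyde dehydrogenase (ALDH) activity, which the fluorescent ALDEFLUOR substrate reports, with unstained and inhibitor-treated cells as sorting controls. Both fractions came from the same mice, for which the labels name no genetic modification, and each of 3 independent pools of 10 mice gave 1 Affymetrix array of each fraction. A sample therefore averages 10 animals, and the comparison asks which transcripts differ between cells of high and low ALDH activity from the same pool.

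EGF-type ligands are made as membrane-bound precursors, and metalloproteases release the growth factor from the cell surface. The ligands of this set bind Egfr, some also bind Erbb4, and the bound receptors pair with each other or with Erbb2, which has no known ligand of its own, and Erbb3, whose own kinase is weak. The pairs signal through Ras, ERK and phosphoinositide 3-kinase. In the ovulating follicle, luteinizing hormone induces Areg, Ereg and Btc in granulosa cells, and these ligands act on Egfr of cumulus and granulosa cells.

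Values below are log2 signal after quantile normalization, and differences are ALDH-positive minus ALDH-negative of the same pool. A probe set was tested where its mean over the 6 arrays exceeded 2.73, the level that sets apart the dimmest 40% of the table. Significance means a limma adjusted p below 0.05 over all probe sets tested. None of the 27022 probe sets passed, a share of 0%, while 661 (2.45%) had an unadjusted p below 0.05. One array, that of ALDH-negative cells of pool 2, stood apart. It correlated at 0.56 to 0.69 with the other arrays, which correlated at 0.85 to 0.97 with each other. It was the highest or the lowest of the 6 arrays at 10 of the 14 tested EGF family probe sets and at 72.5% of all those tested. The tested EGF family members are therefore given by pool. A mean difference given for a named gene has that of pools 1 and 3 beside it. This is done where they differ by more than 1.5 times or in direction.

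The labelled tissue was checked against its markers. All 11 surface epithelium and mesothelium markers were higher in ALDH-positive cells in every pool, beside 11.3% of all genes tested, with a list median of 3.61. Their summed linear signal was 2431 to 3148 in ALDH-positive cells and 275 to 516 in ALDH-negative cells. Granulosa markers summed to 985 to 1565 in ALDH-positive cells and to 155 to 2118 in ALDH-negative cells, where the lowest value is the array that stood apart. Theca, interstitial and luteal markers summed to 3254 to 4827 in ALDH-positive cells and to 292 to 7104 in ALDH-negative cells, again with the lowest value on that array. In pools 1 and 3 this sum was the higher in ALDH-negative cells, with log2 ratios of -0.58 and -0.48, against 4.05 in pool 2. Most of it came from Fdx1, Cyp11a1 and Hsd3b1, while Cyp17a1, at a mean of 2.04 over the 6 arrays, was below the filter level. Fibroblast and stroma markers summed to 826 to 1116 in ALDH-positive cells and to 91 to 318 in ALDH-negative cells. Most of this signal came from the collagen genes Col1a1 and Col3a1, and 3 of the 5 tested genes of the list were higher in every pool. Endothelial (46 to 111 in ALDH-positive, 60 to 92 in ALDH-negative cells) and leukocyte markers (70 to 321 in ALDH-positive, 63 to 333 in ALDH-negative cells) overlapped between the fractions. Of the 8 granulosa markers with a probe set 7 were above the filter level. Only Fshr was below it, at 2.15 in ALDH-positive cells and 2.06 in ALDH-negative cells. Its mean difference was 0.087, and -0.38 without pool 2. In such sorted bulk samples, fewer cells of a type and less RNA per cell cannot be told apart, and the part of these markers in the differences below was not tested.

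No EGF family probe set passed the test between the fractions. Nor did any other of the table, such as the surface epithelium marker Bnc1 with a difference of 5.45 (SE 0.63, limma adjusted p = 0.765). A miss therefore does not show that the fractions are alike. Of Egfr, the common receptor of these ligands, 3 of 5 tested probe sets were higher in ALDH-positive cells in all 3 pools, and the other 2, which include the brightest, were lower in the mean. At the probe set of largest difference, the dimmest of the 5, Egfr signal in ALDH-positive cells was 3.47 times that in ALDH-negative cells. The log2 difference was 1.79 (SE 0.67, n = 3 pools), and 1.36 without pool 2. It stands against an ALDH-negative mean of 2.49, below the filter level. Tgfa was the only gene with a tested probe set lower in all 3 pools, with a mean difference of -1.58 (SE 0.81) and a pool 2 value of -3.52. One of 2 Errfi1 probe sets was higher in all 3 pools, and Hbegf, Erbb2 and Erbb3 showed no common direction across pools and probe sets. The limma adjusted p of the 14 probe sets was 0.895 to 1.

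The stretches upstream of Egfr and Errfi1 are shown because these are the receptor and the inhibitor with tested probe sets higher in every pool. Each is the 250 bases before a start site listed by RefSeq (GRCm38.p6, plus strand), 5′ to 3′, and 7 of the 10 genes matched the promoter table. Capitals mark matches to the letters TGACGTCA (the cyclic AMP response element), TGANTCA (an AP-1 site) and GGGCGG (a GC box), all on both strands, and, for the TATA box on the gene strand, TATAAA. The Egfr window is chr11:16751953-16752202. The Errfi1 window, chr4:150854820-150855069, lies before the second listed start of the gene, and the window before the first, chr4:150853546-150853795, held no match to any of the 4 motifs.
Egfr: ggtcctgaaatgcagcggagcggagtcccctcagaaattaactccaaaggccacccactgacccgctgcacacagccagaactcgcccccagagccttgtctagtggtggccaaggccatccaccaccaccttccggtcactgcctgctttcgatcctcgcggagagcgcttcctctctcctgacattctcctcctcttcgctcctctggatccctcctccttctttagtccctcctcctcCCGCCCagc
Errfi1: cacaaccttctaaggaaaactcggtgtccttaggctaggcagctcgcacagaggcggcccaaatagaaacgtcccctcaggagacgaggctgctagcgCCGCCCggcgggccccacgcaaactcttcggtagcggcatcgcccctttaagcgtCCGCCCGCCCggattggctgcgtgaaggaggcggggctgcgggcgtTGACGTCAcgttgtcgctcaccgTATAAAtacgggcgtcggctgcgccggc
The Egfr window held 1 GC box and no match to the other motifs. The Errfi1 window held 1 cyclic AMP response element beginning at position -51 from the start, 1 TATA box at -28, and 3 GC boxes, of which those at -97 and -93 overlap. The window of Areg, which has no value here, also held a cyclic AMP response element, at -61. Of 32851 listed windows of this length, 1.55% held the cyclic AMP response element, 6.75% an AP-1 site, 32.7% a GC box and 7.59% the TATA box. These matches describe the letters of the windows.

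**Figure D1:**
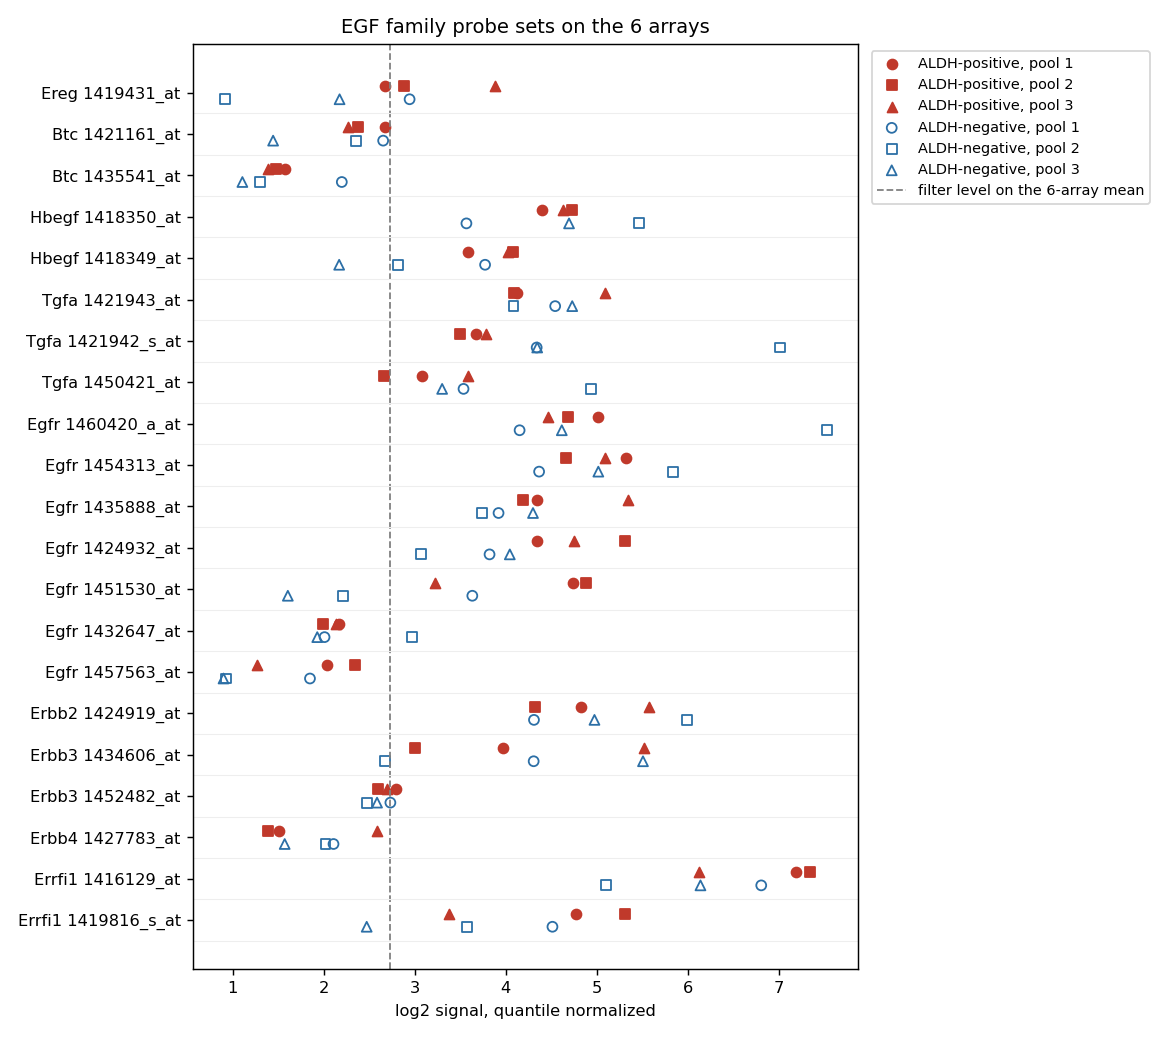
Log2 signal (horizontal axis, quantile normalized) of the 21 EGF family probe sets (rows), with ALDH-positive arrays as filled red symbols above ALDH-negative arrays as open blue symbols, the symbol shape giving the pool and the dashed line the filter level of 2.73. The ALDH-negative square of pool 2 lies far right at Egfr 1460420_a_at (7.54) and Tgfa 1421942_s_at (7.01) and left of all other arrays at Errfi1 1416129_at (5.10).

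Of the ligands, Ereg (epiregulin) was dim. Its single probe set read 2.67, 2.88 and 3.88 in ALDH-positive cells of pools 1, 2 and 3, against 2.94, 0.91 and 2.18 in ALDH-negative cells. The ALDH-positive array of pool 3 was the highest, and the groups overlapped through the ALDH-negative array of pool 1. The pool differences were -0.27, 1.97 and 1.70, with a mean of 1.13 (SD 1.22), and 0.72 without pool 2. With a mean of 2.58 over the 6 arrays it fell below the filter and was not tested.

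Btc (betacellulin) was below the filter at both of its probe sets. The brighter, 1421161_at, read 2.68, 2.38 and 2.27 in ALDH-positive cells and 2.65, 2.36 and 1.45 in ALDH-negative cells. The fractions of pools 1 and 2 differed there by 0.022 each, and those of pool 3 by 0.83. The other, 1435541_at, differed by -0.62, 0.17 and 0.28 between readings that never exceeded 2.20. Its mean difference was -0.056, and -0.17 without pool 2.

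Hbegf, the heparin-binding ligand of Egfr and Erbb4, had 2 tested probe sets annotated to the same sequence record, and they ran in opposite directions in each pool. At 1418350_at it read 4.39, 4.73 and 4.63 in ALDH-positive cells, against 3.57, 5.47 and 4.70 in ALDH-negative cells. The ALDH-positive arrays lay close together and inside the range of the ALDH-negative ones. The mean difference was 0.0062 (SE 0.67, 95% interval -1.57 to 1.58).

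At the second Hbegf probe set, 1418349_at, ALDH-positive cells read 3.59, 4.08 and 4.03, against 3.77, 2.81 and 2.17 in ALDH-negative cells. Only the ALDH-negative array of pool 1 lay within the ALDH-positive range. The differences were -0.18, 1.27 and 1.86, with a mean of 0.98 (SE 0.71, limma adjusted p = 0.895). Over pools 1 and 3 the Hbegf difference was 0.38 at the first probe set and 0.84 at the second.

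Tgfa (transforming growth factor alpha), a ligand of Egfr, had 3 tested probe sets annotated to 1 sequence record. The probe set 1421942_s_at read 3.68, 3.49 and 3.78 in ALDH-positive cells, against 4.34, 7.01 and 4.35 in ALDH-negative cells. The groups did not overlap, as was also so, in the same direction, for 3.4% of all probe sets tested. The pool differences were -0.66, -3.52 and -0.56, so that the mean of -1.58 (SE 0.81, limma adjusted p = 0.895) became -0.61 without pool 2.

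The other Tgfa probe sets gave smaller values. At 1450421_at ALDH-positive cells read 3.09, 2.66 and 3.59, against 3.54, 4.94 and 3.30 in ALDH-negative cells, with a mean difference of -0.81 (SE 0.74) and -0.081 without pool 2. At 1421943_at the readings were 4.12, 4.09 and 5.09 in ALDH-positive cells and 4.54, 4.09 and 4.73 in ALDH-negative cells. The mean difference there was -0.021 (SE 0.64), above 0 in median-centred arrays (0.098). All 3 probe sets were lower in ALDH-positive cells of pool 1, and 2 of the 3 were higher in those of pool 3.

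Egfr is the receptor that all 5 ligands share, at positions 16752203 to 16913907 of chromosome 11, and 7 probe sets report it. In pool 1 all 7 were higher in ALDH-positive cells, in pool 3 it was 6 of 7 and in pool 2 it was 4 of 7. Among the 5 tested, the counts were 5 in pool 1, 3 in pool 2 and 4 in pool 3, beside 49.6%, 51% and 49.8% of all probe sets tested. The probe sets share 1 target gene and the same arrays, so these counts are not replicates of the comparison.

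The probe set of Egfr with the largest difference was 1451530_at. It read 4.74, 4.88 and 3.23 in ALDH-positive cells of pools 1, 2 and 3, against 3.63, 2.22 and 1.61 in ALDH-negative cells. In each pool the ALDH-positive array was the higher by at least 1.10, although the ALDH-negative array of pool 1 exceeded the ALDH-positive array of pool 3. The differences were 1.10, 2.66 and 1.62, and without pool 2 the mean was 1.36 (SE 0.41). The 95% interval of the mean over all pools was 0.22 to 3.37. Its unadjusted p of 0.0308 was the only one below 0.05 among the 14, and after adjustment over the table it was 0.895 by limma. The ALDH-negative mean of 2.49 lies below the filter level, so the fold is against a dim signal.

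The probe set 1424932_at, annotated to the same sequence record, read 4.34, 5.31 and 4.75 in ALDH-positive cells, against 3.82, 3.07 and 4.05 in ALDH-negative cells. The groups did not overlap, as held in this direction for 3.49% of all probe sets tested. The differences were 0.52, 2.24 and 0.71, with a mean of 1.15 (SE 0.69, limma adjusted p = 0.895) and 0.61 without pool 2. At 1435888_at Egfr read 4.34, 4.19 and 5.34 in ALDH-positive cells and 3.92, 3.74 and 4.30 in ALDH-negative cells. There the pool differences were 0.42, 0.45 and 1.04, with a mean of 0.64 (SE 0.64), and 0.73 without pool 2. The groups overlapped at this probe set.

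The remaining tested Egfr probe sets turned with pool 2. The one of highest mean, 1460420_a_at, read 5.01, 4.68 and 4.47 in ALDH-positive cells, against 4.15, 7.54 and 4.62 in ALDH-negative cells. Its mean difference of -0.71 (SE 0.85) became 0.36 without pool 2, and its high mean rested on the array that stood apart. At 1454313_at the readings were 5.32, 4.67 and 5.09 in ALDH-positive cells and 4.37, 5.84 and 5.02 in ALDH-negative cells. The mean difference of -0.048 (SE 0.71) became 0.52 without pool 2, and it was 0.25 in the values as deposited. The untested probe sets 1432647_at and 1457563_at differed by -0.20 and 0.65 in the mean, and by 0.18 and 0.27 without pool 2.

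**Figure D2:**
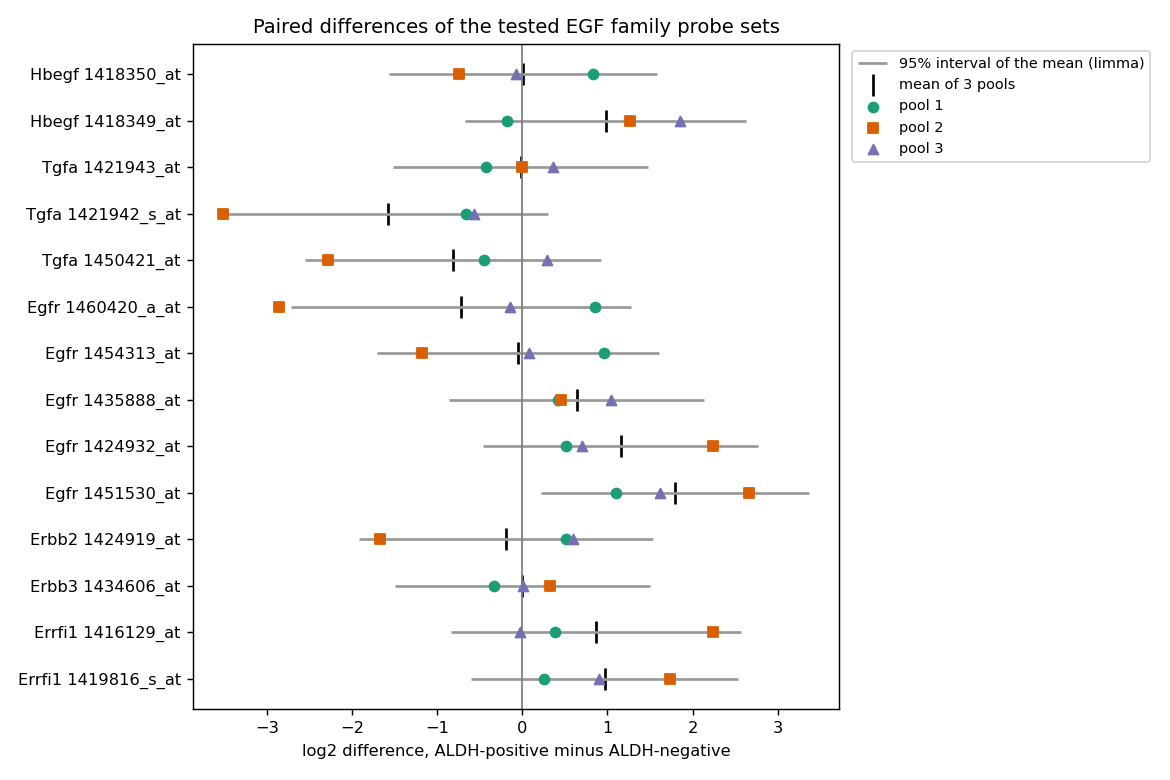
Log2 difference of ALDH-positive minus ALDH-negative cells (horizontal axis) for the 14 tested EGF family probe sets, with 1 coloured symbol per pool, a black tick for the mean of the 3 pools and a grey bar for its limma 95% interval. Only the interval of Egfr 1451530_at (0.22 to 3.37) lies clear of 0, without adjustment, and the pool 2 squares reach -3.52 at Tgfa 1421942_s_at and 2.66 at Egfr 1451530_at.

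Erbb2, the receptor that acts as a partner of the others, read 4.82, 4.33 and 5.57 in ALDH-positive cells, against 4.31, 5.99 and 4.98 in ALDH-negative cells. The array that stood apart was the highest of the 6. The pool differences were 0.51, -1.67 and 0.59, which gave a mean of -0.19 (SE 0.74, 95% interval -1.91 to 1.54) and 0.55 without pool 2. Erbb2 was thus higher in ALDH-positive cells of pools 1 and 3, and its mean in the values as deposited was 0.13.

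Erbb3, which binds neuregulins and signals through phosphoinositide 3-kinase, varied more between pools than between the fractions of a pool at its tested probe set. Its tested probe set read 3.98, 3.0 and 5.52 in ALDH-positive cells of pools 1, 2 and 3, against 4.31, 2.67 and 5.51 in ALDH-negative cells. Both fractions were lowest in pool 2 and highest in pool 3. The fractions of a pool differed by -0.33, 0.33 and 0.0094, and the mean difference was 0.0018 (SE 0.64, 95% interval -1.49 to 1.49), against -0.16 without pool 2 and -0.23 in the values as deposited. The dimmer Erbb3 probe set, at 2.65 over the 6 arrays just outside the filter, differed by 0.062, 0.12 and 0.10. It read 2.80, 2.60 and 2.69 in ALDH-positive cells and 2.73, 2.48 and 2.59 in ALDH-negative cells, highest in pool 1 rather than pool 3.

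Erbb4, a receptor for neuregulins and for some EGF-type ligands, was below the filter. It read 1.51, 1.39 and 2.59 in ALDH-positive cells and 2.11, 2.02 and 1.57 in ALDH-negative cells, all under 2.73. Its pool differences were -0.59, -0.63 and 1.02, with a mean of -0.069, and 0.21 without pool 2.

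Errfi1 encodes a cytoplasmic protein that binds the kinase domain of active Egfr and blocks it, and its transcript is induced by the same signal. The probe set 1416129_at read 7.19, 7.34 and 6.12 in ALDH-positive cells, against 6.81, 5.10 and 6.14 in ALDH-negative cells. The fractions of pools 1 and 3 lay close together, and the array that stood apart was the lowest of the 6. The differences were 0.38, 2.24 and -0.021, with a mean of 0.87 (SE 0.73) and 0.18 without pool 2. The second probe set, 1419816_s_at, read 4.77, 5.31 and 3.38 in ALDH-positive cells and 4.51, 3.57 and 2.47 in ALDH-negative cells. It was higher in ALDH-positive cells in each pool, by 0.26, 1.74 and 0.90, with a mean of 0.97 (SE 0.67, limma adjusted p = 0.895) and 0.58 without pool 2.

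Over the 14 tested probe sets, 8 were higher and 6 lower in ALDH-positive cells in the mean, beside 48.2% higher among all tested. All 3 pools gave the same direction for 4 higher and 1 lower, where the shares over all probe sets tested were 11.5% and 10.8%. The 4 were 3 probe sets of Egfr and 1 of Errfi1, so they stand for 2 genes. In pools 1 and 3 alone 6 were higher in both and 1 lower in both, with 25.7% and 26.4% over the table. With the probe set of highest mean standing for each gene, the 6 tested genes had a median difference of -0.0094 (0.45, -0.37 and -0.0059 in pools 1 to 3), against -0.082 for all 12814 genes tested. Without pool 2 these medians were 0.27 and 0.039.

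The genes whose signal was most alike over the 6 arrays were sought by Pearson correlation among 12814 genes, 1 probe set a gene. For Errfi1 these were Pam (r = 0.9985), Phkg2 (0.993) and Dhx16 (0.992), with pool 2 differences of 4.49, 1.95 and 3.28. For Erbb3 they were Rai14 (0.993), Med23 (0.992) and Cdc40 (0.992), which differed by at most 0.42 between fractions of any pool. The nearest gene was Gm11487 (0.998) for Egfr at 1460420_a_at, Vmn1r148 (0.998) for Erbb2, Aggf1 (0.995) for Tgfa and Ndn (0.991) for Hbegf. With 6 points that include the array that stood apart, these values are a description.

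Other genes of EGF signalling were followed in 6 lists, of which 56 of 69 genes were tested. None passed over the table (0% of all genes tested), and 42 were higher and 14 lower in ALDH-positive cells in the mean, beside 46% higher among all genes tested. All 3 pools gave the same direction for 14 higher and 2 lower, beside 11.3% and 11.4% of all genes tested. In pools 1 and 3 alone 24 were higher in both and 12 lower in both, beside 27.8% and 25.7%.

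The targets of ERK or of EGF signalling gave the largest list median, 1.04 over 10 tested genes. The pool medians were 0.54, 2.63 and 0.56, and the median was 0.63 without pool 2, where all genes had 0.039. All 10 were higher in ALDH-positive cells in the mean and 5 of them in every pool, beside 46% and 11.3% of all genes tested. In pools 1 and 3 alone 6 were higher in both and 1 lower in both, beside 27.8% and 25.7%. The list was chosen with earlier results of these data known, so these counts are a description. Fosl1, an AP-1 subunit, read 4.94, 5.58 and 7.40 in ALDH-positive cells, against 4.32, 1.87 and 5.24 in ALDH-negative cells. The array that stood apart was the lowest, and the groups overlapped. The mean Fosl1 difference was 2.16 (SE 0.78), and 1.39 without pool 2. The other genes of smallest p were Phlda1 (2.43, SE 1.08), the transcription factor Myc (1.88, SE 1.11) and the ETS factor Etv5 (1.12, SE 0.72). Without pool 2 Phlda1 stood at 0.76, Myc at 0.12 and Etv5 at 0.46.

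Among inhibitors of the receptors or of Ras and ERK, 11 of 15 tested genes were higher in the mean and 3 in every pool. The shares of all genes tested were 46% and 11.3%. Dusp6, a phosphatase of ERK, read 6.87, 6.96 and 6.81 in ALDH-positive cells, against 6.17, 2.43 and 4.66 in ALDH-negative cells. The ALDH-positive arrays lay within a narrow range above all ALDH-negative ones. Groups did not overlap in this direction at 3.49% of all probe sets tested. The Dusp6 differences were 0.70, 4.53 and 2.14 (mean 2.46, SE 0.86, limma adjusted p = 0.895), with a mean of 1.42 without pool 2. Spred2, an inhibitor of Ras to Raf signalling, differed by 2.00 (SE 0.78), and by 1.20 without pool 2. Cbl, a ubiquitin ligase that marks active Egfr for degradation, differed by 1.67 (SE 0.73), and Lrig2 by -1.53 (SE 0.73). Without pool 2 Cbl stood at 1.07 and Lrig2 at -0.92. The list median of 0.26 was -0.18 without pool 2.

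Of the ovulatory targets of EGF-type ligands, 5 of 8 genes were tested. Ptgs2, the inducible prostaglandin synthase, read 5.24, 5.67 and 6.48 in ALDH-positive cells, against 4.31, 1.24 and 3.72 in ALDH-negative cells. The groups did not overlap, as held in this direction for 3.49% of all probe sets tested, and the array that stood apart was the lowest. The mean Ptgs2 difference of 2.70 (SE 0.82, limma adjusted p = 0.895) amounts to 6.52-fold, and the log2 difference was 1.84 without pool 2. The hyaluronan-binding protein gene Tnfaip6 differed by 0.67 (SE 0.66), the protease gene Adamts1 by 0.47 (SE 0.84) and Star, which brings cholesterol into mitochondria, by 0.54 (SE 1.04). Adamts1 and Star were at -0.58 and -1.06 without pool 2. Star and Lhcgr also stand in the list of theca, interstitial and luteal markers. The cumulus matrix gene Has2 was too dim to be tested, at 3.09 in ALDH-positive cells and 2.08 in ALDH-negative cells.

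Many values of the remaining ligands, shedding enzymes and signal carriers turned on pool 2. Of 6 other ligands 3 were tested, with differences of 0.67 for Egf (SE 0.69), -0.76 for the neuregulin gene Nrg2 (SE 0.88) and 0.57 for Nrg4 (SE 0.90). Without pool 2 Nrg2 turned to 0.42 and Nrg4 stood at 1.44. In the shedding list, with a median of 0.17 over 6 genes, the protease gene Adam17 stood at 0.38 (SE 0.69), Adam15 at -0.64 (SE 0.72), and Rhbdf1 and Rhbdf2, partners of Adam17, at 0.42 (SE 0.64) and -0.22 (SE 0.71). Without pool 2 the list median was 0.41, and Adam17 at -0.11, Adam15 at 0.022 and Rhbdf2 at 0.32 had the opposite direction. The 17 tested adaptors and kinases had a median of 0.14, with 4 higher and 1 lower in every pool, beside 11.3% and 11.4% of all genes tested. The genes of smallest p there were the kinase Braf (1.20, SE 0.82), Stat3 (1.07, SE 0.75) and the phosphoinositide 3-kinase subunits Pik3r1 (-1.16, SE 0.86) and Pik3ca (1.20, SE 0.96). Without pool 2 Braf stood at 0.19, Stat3 at 0.29, Pik3r1 at -2.08 and Pik3ca at -0.19.

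**Figure D3:**
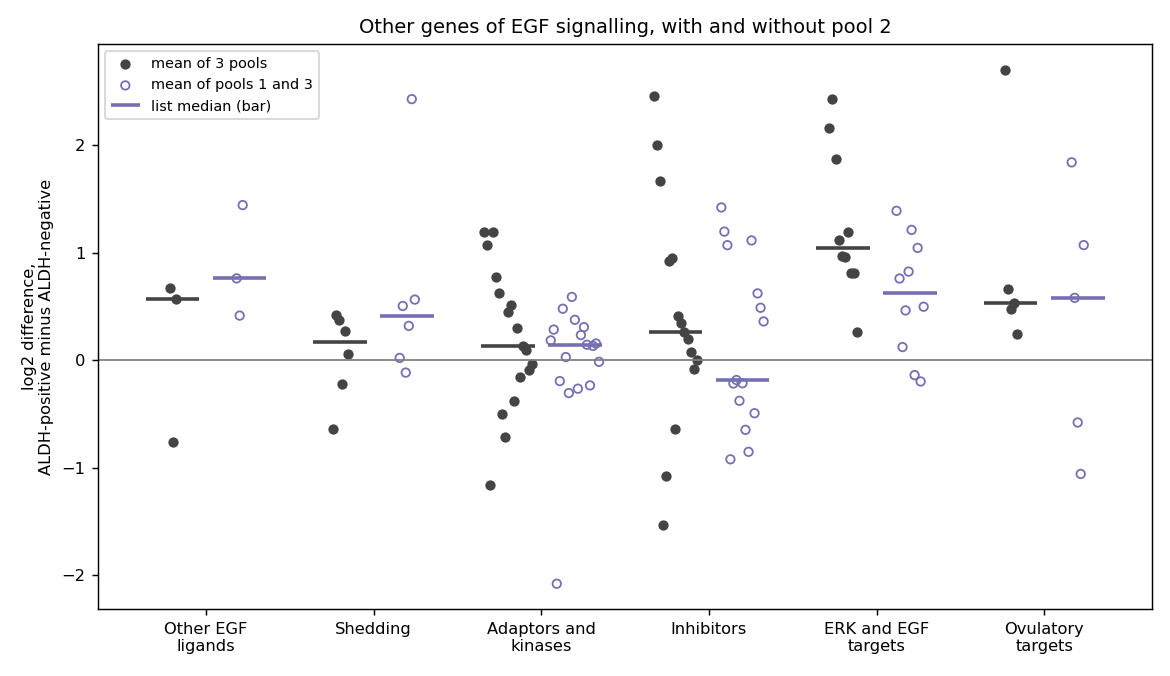
Log2 difference of ALDH-positive minus ALDH-negative cells (vertical axis) for the tested genes of the 6 lists of EGF signalling, with filled points for the mean of 3 pools, open points for the mean of pools 1 and 3, and bars for the list medians. The median of the ERK and EGF targets is 1.04 over 3 pools and 0.63 over pools 1 and 3, and that of the inhibitors is 0.26 and -0.18.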

How the data were processed

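Per the labels' protocols, cDNA made from total RNA was amplified (Ovation Pico WTA) before labelling with biotin. The deposited table gives 1 value per probe set and array, taken as log2 signal from its range, since no header states the scale. How the authors summarised and normalized it was not given in the sources used here. The deposited medians of the arrays differed by up to 0.46, and 64 control probe sets were removed before quantile normalization. Names came from the platform annotation of GEO, updated through Entrez identifiers with the RefSeq table of GRCm38.p6 (34945 with 1 symbol, 932 with several, 9160 with none, no symbol changed).

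The paired comparison used limma 3.58.1 (R 4.3.3) with the pool as block, and p-values of the whole tested table were adjusted by Benjamini-Hochberg. The pairing comes from the series design, a paired analysis of 3 pools. The deviations from the group means of both arrays of a pool correlated at 0.38 in pool 1, -0.19 in pool 2 and 0.35 in pool 3. Those of arrays of different pools correlated at -0.47 to 0.42. Deviations within a group cancel out and include the array that stood apart, so these values do not bear out the pairing and cannot decide it. An exact sign-flip test of 3 pairs cannot go below p = 0.25, and the number of arrays limits the precision. The fit was tested on simulated data that held no array standing apart, so that test does not tell how the fit performs on these arrays. Every member is named, and of each other list up to 4 tested genes of smallest unadjusted p, with 1 probe set of highest mean for each gene. Has2, Fshr, Cyp17a1 and the genes that gave most of a marker sum were named after their values were seen. The members and lists were chosen with earlier results of these data known. Alternatives changed the normalization, the filter, the block, the arrays, their weights and the probe set standing for a gene.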

Additional observations from a re-analysis of the deposited data

How the results depend on the processing

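No EGF family probe set passed under the values as deposited, median-centred arrays, other filters, eBayes with trend and robust estimation, or without any 1 pool. The count also stayed at 0 without the pool block, with and without the ALDH-negative array of pool 2. Array weights were the exception, with 2 of 14 EGF family probe sets, Egfr 1451530_at (1.54, limma adjusted p = 0.0131) and Hbegf 1418349_at (1.42, adjusted p = 0.0353). In that fit 2953 probe sets (10.9%) of the whole table passed. Of the other lists 24 probe sets did. The tested probe sets of those lists were not counted, only their genes, so the 24 cannot be set against 10.9%. That fit weights the arrays of pools 1, 2 and 3 at 1.30, 0.158 and 4.87, so it leans on pool 3. Leaving out 1 pool gave 0 to 7 calls over the table, 7 of them without pool 1.

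Of 162 values of the tested probe sets under alternatives, 138 kept their direction and 24 did not, and 7 of 14 probe sets kept it throughout. Other filters, the block left out with all arrays kept, and eBayes with trend and robust estimation leave a mean difference unchanged. Their values are among the 138 and could not change direction, so the 138 overstate how stable the directions were. The median difference of all probe sets tested was -0.036 after quantile normalization, 0.050 with none and 0.22 with arrays centred on their medians, where that of the 14 EGF family probe sets was 0.0040, 0.28 and 0.44. In values as deposited Egfr 1454313_at was 0.25, Erbb2 0.13 and Erbb3 -0.23. In median-centred arrays Tgfa 1421943_at was 0.098, Egfr 1454313_at 0.42, Erbb2 0.29 and Erbb3 -0.060. Leaving out 1 pool gave -0.40 to 0.38 for Hbegf 1418350_at, -0.21 to 0.18 for Tgfa 1421943_at, -1.50 to 0.36 for Egfr 1460420_a_at, -0.55 to 0.52 for Egfr 1454313_at, -0.58 to 0.55 for Erbb2 and -0.16 to 0.17 for Erbb3. Without the block and without the ALDH-negative array of pool 2, Egfr 1460420_a_at was 0.34, Egfr 1454313_at 0.33, Erbb2 0.26 and Erbb3 -0.74. With array weights Tgfa 1421943_at was 0.19, Tgfa 1450421_at 0.073, Egfr 1454313_at 0.23, Erbb2 0.52 and Erbb3 -0.053. The mean over the Egfr probe sets tested was 0.56, where the one of highest mean gave -0.71. The causes were not tested. The median of the 6 genes was -0.12 to 0.30 under its alternatives. The count higher in every pool was 4, and 5 or 6 under alternatives chosen after seeing the data. Leaving out pool 2 gave 6, but that count asks only for pools 1 and 3 and could not fall below 4. The share of all probe sets tested was 25.7% for pools 1 and 3, against 11.5% for all 3 pools. Without normalization the count was 5, and with median centring it was 6. Both settings also raised the median of all probe sets tested, as given above. Their shares over the table were not counted, so the higher counts do not show a stronger direction of the family.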
